A study of Mus musculus with 12 samples.

Results

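The Paneth-type antimicrobial genes AY761184, Defa29, Defa24, Lyz1, Itln1 and Mptx2, were followed in mouse colorectal tissue. These genes were chosen by symbol with earlier results of these data known, and all 6 of them were found among the 18514 genes listed and passed the filter on low counts, as did 15484 genes in all. The series holds 1 RNA-seq library from each of 12 male C57BL/6 mice bought at 4 weeks of age, 3 in each of 4 groups. Ctrl mice received neither drug nor training. Ctrl_Swim mice swam, in sessions lengthened to 90 min per day, for 2 months before the experiment and until its end. Model mice received a single injection of azoxymethane (AOM), a colon carcinogen, at 10 mg/kg, followed by 3 cycles of 2% dextran sulfate sodium (DSS) in the drinking water, which inflames the colon. Model_Swim mice received both AOM/DSS and the swimming. Mice that did not swim were placed in shallow water. The age at tissue collection is not given in the sources used here.

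Paneth cells sit at the base of the crypts of the small intestine and release granules of antimicrobial proteins into the gut lumen. Their best known products are the α-defensins, small secreted peptides held together by cysteine bridges, together with lysozyme and other lectins and enzymes. A healthy mouse colon holds few or no Paneth cells, and Paneth cell genes are known to appear in the colon in inflammation and in colon tumours. AY761184, Defa29 and Defa24 belong to the α-defensin family, Lyz1 encodes the lysozyme of Paneth cells, Itln1 an intelectin that binds microbial sugars and is made by Paneth and goblet cells, and Mptx2 a mucosal pentraxin.

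The 3 α-defensin members fall into different sequence classes, and since their counts did not move together, the coding sequences are shown first. They were read from GENCODE M21 on GRCm38. AY761184 lies on chromosome 8 at 21702519 to 21703645, minus strand, where RefSeq lists the gene as Defa39. Defa29 lies on chromosome 8 at 21325887 to 21327020, minus strand, and Defa24 on chromosome 8 at 21734494 to 21735471, plus strand. All 3 have 2 exons. Each line below runs from codon 61 to the stop codon, the part that holds all cysteine codons, with these codons (TGT and TGC) in capitals. The start at codon 61 was set for display and is not the start of the mature peptide. Gm14851, which RefSeq lists as Defa38, and Defa21 are shown as further examples of their classes.
Defa24: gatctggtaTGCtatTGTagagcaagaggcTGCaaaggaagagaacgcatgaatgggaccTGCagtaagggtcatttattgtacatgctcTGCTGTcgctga
Defa21: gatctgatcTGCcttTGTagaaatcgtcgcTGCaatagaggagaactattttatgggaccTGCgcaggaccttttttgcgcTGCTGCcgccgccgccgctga
Defa29: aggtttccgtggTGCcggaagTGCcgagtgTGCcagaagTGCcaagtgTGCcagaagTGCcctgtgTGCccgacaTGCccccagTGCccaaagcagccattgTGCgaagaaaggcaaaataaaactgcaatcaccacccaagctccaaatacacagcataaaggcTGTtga
AY761184: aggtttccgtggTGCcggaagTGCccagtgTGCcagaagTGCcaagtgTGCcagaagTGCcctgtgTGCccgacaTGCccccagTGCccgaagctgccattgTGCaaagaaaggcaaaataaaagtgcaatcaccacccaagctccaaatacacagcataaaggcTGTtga
Gm14851: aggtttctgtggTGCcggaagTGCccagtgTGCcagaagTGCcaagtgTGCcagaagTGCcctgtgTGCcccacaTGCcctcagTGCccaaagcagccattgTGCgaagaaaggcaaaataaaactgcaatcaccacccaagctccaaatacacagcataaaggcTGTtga

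AY761184 and Defa29 carried 11 cysteine codons in a coding sequence of 351 bases, as did Gm14851, Gm7849 and Gm7861. They belong to the cryptdin-related sequences, a branch of the family that departs from the usual pattern of cysteines. Defa24 carried 6 cysteine codons in 282 bases with 10 codons from the 4th to the 5th of them, and shared this pattern with 13 other listed α-defensins. In Defa21, Defa22, Defa20 and Defa2 the 4th and the 5th were 7 codons apart. The coding sequences of AY761184 and Defa29 were identical at 96.6% of aligned bases, and those of AY761184 and Defa24 at 77.1%. Defa24 and Defa30 were identical at 98.6%. Reads from such close relatives can be hard to tell apart, and the way the counting treated reads that match several genes is not given in the sources used here, so the split of counts within a class is uncertain.

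The other 3 members lie elsewhere. By the same annotation, Lyz1 lies on chromosome 10 at 117287797 to 117292868, minus strand, beside its paralog Lyz2, the lysozyme of macrophages and neutrophils, and the coding sequences of both, 447 bases each, were identical at 95.1%. Itln1 lies on chromosome 1 at 171518122 to 171535294, minus strand. Mptx2 lies on chromosome 1 at 173274382 to 173277777, minus strand, and its 660 coding bases were identical to those of Mptx1 at 92.0%.

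Total counts ranged from 17256953 to 19451055, so that a count of 3, the limit that a count of 0 allows, is at most 0.172 CPM (read counts scaled to a common library size after TMM normalization). Limits and intervals of this kind cover counting error only. Some libraries stood apart. The summed level of 20 pancreatic acinar genes was 55325 CPM in Model 1 and 26931 CPM in Model 3 against at most 706 CPM elsewhere. The summed level of 10 genes of squamous epithelium was between 109 and 1406 CPM in Model 1, Model 2, Ctrl_Swim 4 and all 3 Model_Swim mice and at most 47.7 CPM in the others. Hoxb13 and Hoxd13, which mark the distal colon, were at 7.58 and 0.287 CPM in Model 3 against at least 53.3 and 12.3 CPM elsewhere. Member values are therefore also given without Model 1 and Model 3. In whole tissue, fewer cells of a type and less RNA per cell cannot be told apart. The labels do not say more about the mice than that they are separate samples, so that p-values measure the spread between these samples.

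AY761184, Defa29 and Mptx2 were lowest in the Model mice, which received AOM/DSS and did not swim. Among the Model_Swim mice they lay below every Ctrl_Swim mouse, but overlapped the Ctrl mice, since Ctrl 1 was below at least 1 Model_Swim mouse for each of the 3 genes. AY761184 stood at 0.607, 11.6 and 6.54 CPM in Ctrl 1, 2 and 3 and at 3.23, 1.22 and 6.29 CPM in Ctrl_Swim 2, 3 and 4. In Model 1 it had 1 count (0.0536 CPM), and in Model 2 and Model 3 it had 0. In Model_Swim 1, 2 and 3 it stood at 0.881, 0.326 and 1.01 CPM. The order of the groups was thus Ctrl, Ctrl_Swim, Model_Swim and Model. Ctrl and Ctrl_Swim overlapped, while Model_Swim lay apart from both of its neighbours and within reach of Ctrl 1.

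Defa29 kept the same order of groups. It stood at 0.828, 6.76 and 3.19 CPM in Ctrl 1, 2 and 3, and at 2.08, 1.49 and 4.34 CPM in Ctrl_Swim 2, 3 and 4. It stood at 0.107, 0.0545 and 0 CPM in Model 1, 2 and 3 and at 0.991, 0.109 and 0.689 CPM in Model_Swim 1, 2 and 3. Model_Swim 2 was the lowest swimmer and had 2 counts, as did Model 1, so that these 2 mice were told apart only by the scaling to library size. Mptx2, the pentraxin, also had this order, at 1.10, 6.32 and 8.19 CPM in the Ctrl mice and 1.97, 1.28 and 4.96 CPM in the Ctrl_Swim mice. It stood at 0.482, 0 and 0 CPM in the Model mice and at 1.05, 0.598 and 1.22 CPM in the Model_Swim mice, and only the Ctrl and Ctrl_Swim mice overlapped among neighbouring groups.

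**Figure D1:**
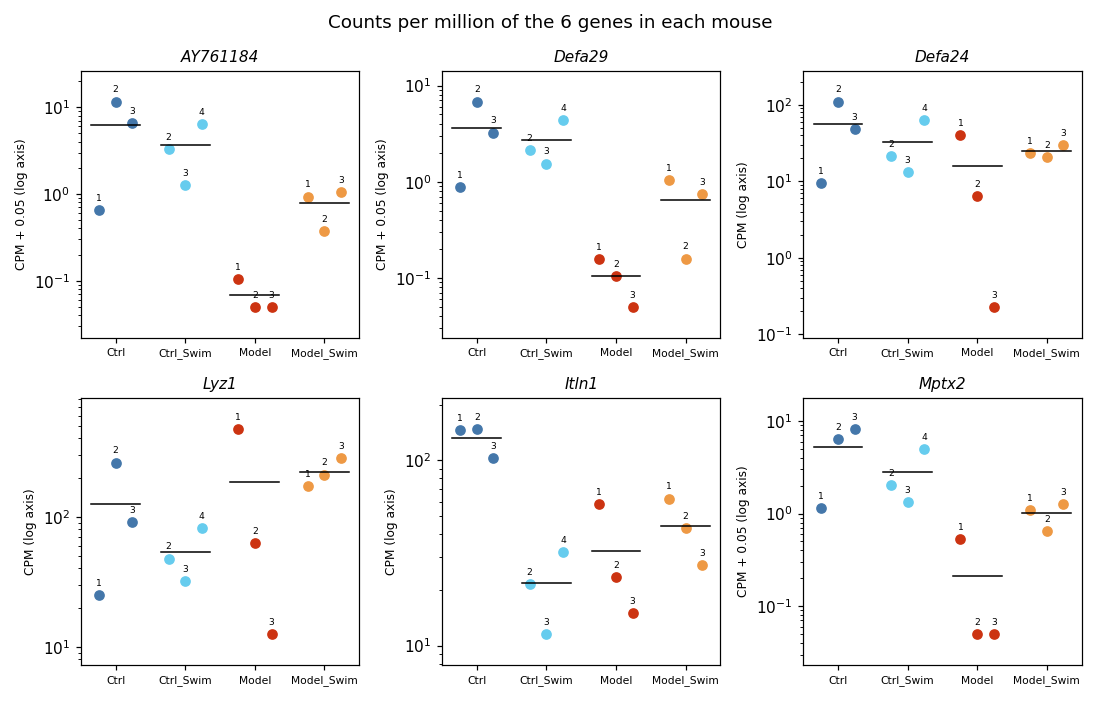
Level of each of the 6 genes in CPM on a log axis (CPM + 0.05 for AY761184, Defa29 and Mptx2, which reach 0), by group, with 1 point per mouse labelled with its replicate number and a line at the group mean. AY761184, Defa29 and Mptx2 were lowest in the 3 Model mice, whereas Defa24 and Lyz1 ranged widely among them and Itln1 was highest in the 3 Ctrl mice.

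Defa24 was the most abundant α-defensin and behaved differently. Its level was 9.55, 110.7 and 47.9 CPM in Ctrl 1, 2 and 3, and 21.4, 13.4 and 63.1 CPM in Ctrl_Swim 2, 3 and 4. It was 40.7, 6.48 and 0.230 CPM in Model 1, 2 and 3, and 23.4, 20.6 and 30.2 CPM in Model_Swim 1, 2 and 3. All neighbouring groups overlapped, Ctrl 2 was the highest mouse and Model 3, with 4 counts, the lowest. In Model 1 Defa24 had 760 counts where AY761184 had 1.

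Lyz1 was the only member whose mean was higher in both AOM/DSS groups than in both untreated groups. It stood at 24.8, 261 and 90.6 CPM in Ctrl 1, 2 and 3 and at 47.6, 31.9 and 81.6 CPM in Ctrl_Swim 2, 3 and 4. In Model 1, 2 and 3 it stood at 475, 62.9 and 12.5 CPM, the first of these the highest and the last the lowest of all 12 mice. In Model_Swim 1, 2 and 3 it stood at 172, 211 and 282 CPM, above every Ctrl_Swim mouse. Its order of means was Model_Swim, Model, Ctrl and Ctrl_Swim, and each group overlapped the next.

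Itln1 had a pattern of its own. It was 146, 148 and 103 CPM in Ctrl 1, 2 and 3 and lower in every other mouse, at 21.5, 11.5 and 32.0 CPM in Ctrl_Swim 2, 3 and 4. It was 58.4, 23.5 and 14.9 CPM in Model 1, 2 and 3 and 62.2, 43.1 and 27.2 CPM in Model_Swim 1, 2 and 3. The Ctrl mice lay apart from the rest, and the other 3 groups overlapped. Ctrl 1, the lowest Ctrl mouse for the other 5 members, was close to Ctrl 2 for Itln1.

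Levels of different genes can be set side by side only per length, as the deposited FPKM values allow. In Ctrl mice the mean was 127 ± 117 FPKM for Defa24, 104 ± 20.4 for Itln1 and 94.2 ± 92.3 for Lyz1 (SD, n = 3), which did not differ beyond their spread. AY761184, Mptx2 and Defa29 were lower on average, at 11.8 ± 10.5, 7.09 ± 5.0 and 6.72 ± 5.64 FPKM (SD, n = 3), and the highest Ctrl mouse of AY761184 lay within the range of Defa24 and Lyz1. In Model_Swim mice Lyz1 led at 177 ± 45.5 FPKM, ahead of Defa24 at 59.7 ± 12.1 and Itln1 at 37.1 ± 14.5 (SD, n = 3), and Lyz1 did not overlap them. AY761184, Mptx2 and Defa29 then stood at 1.49 ± 0.732, 1.39 ± 0.467 and 1.19 ± 0.887 FPKM (SD, n = 3).

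To describe the response to AOM/DSS, Model was compared with Ctrl. In edgeR's quasi-likelihood fit of the 4 groups, a gene was called at a Benjamini-Hochberg adjusted p under 0.05 together with a fold change over 2 or under 0.5. By this rule 4 of the 6 members were lower in Model (AY761184, Defa29, Mptx2 and Itln1) and 0 higher. Of all genes tested, 7.43% passed, 1.22% being lower and 6.21% higher. The members were chosen with these values in view, so the count is a description and no p-value is given for them. The median log2 fold change of the members was -3.48, against 0.0055 over all genes tested.

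The log2 fold change (± SE) between Model and Ctrl was -7.96 ± 1.42 for AY761184, -5.87 ± 1.11 for Defa29, -4.93 ± 1.10 for Mptx2 and -2.03 ± 0.49 for Itln1. Those 4 did not overlap between the groups, as was the case in the lower direction for 23.2% and in the higher direction for 21% of all genes. Each SE was derived from the fold change and the F statistic of edgeR's test and is approximate. The fitted values of AY761184 and Defa29, and their SE, depend on the prior count, since the Model mice together held 1 and 3 counts of them. In counts scaled to library size, AY761184 was 341 times as abundant in Ctrl as in Model (342 counts against 1, 95% exact counting interval 60.7 to 13493). Defa29 was 65.4 times as abundant (197 counts against 3, interval 22.1 to 319.9), and Mptx2 31.5 times (285 against 9, interval 16.4 to 69.7).

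Defa24 and Lyz1 did not pass and overlapped. Their log2 fold changes were -1.82 ± 1.10 and 0.55 ± 1.03 (± SE). Both depended on single mice. Without Model 1 the value of Defa24 was -4.02 and Defa24 then passed as well, and that of Lyz1 was -1.71. Without Ctrl 2 they were -0.82 and 1.70. With both Model 1 and Model 3 left out, only Model 2 remained, which is assumed to vary like the mice of the other groups. The log2 fold changes were then -2.51 for Itln1, -3.13 for Defa24 and -1.02 for Lyz1, so that Lyz1 changed its sign. Model 2 held 0, 1 and 0 counts of AY761184, Defa29 and Mptx2, and no fold change is given for them.

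**Figure D2:**
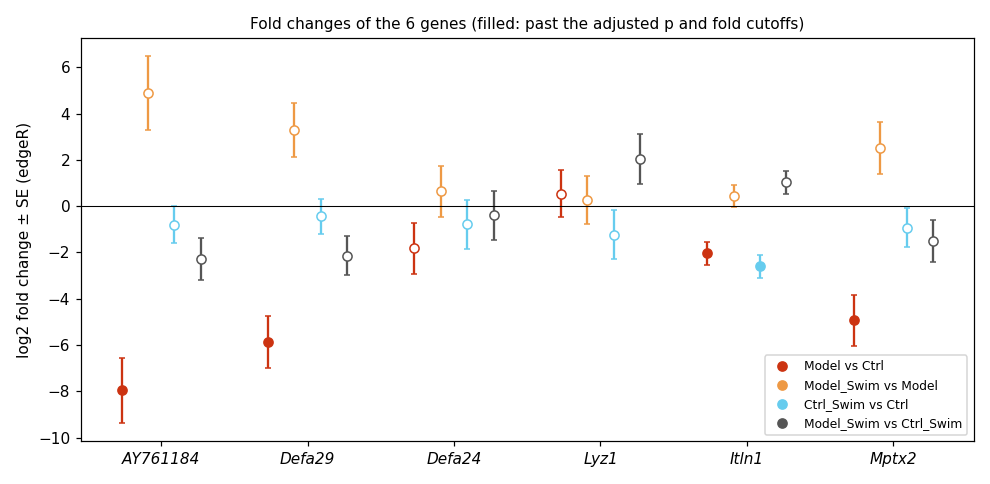
Log2 fold change from edgeR for each of the 6 genes in 4 comparisons, with an approximate SE derived from the F statistic of the test. Filled points are genes past the adjusted p and fold cutoffs. Filled points are AY761184, Defa29, Itln1 and Mptx2 in Model vs Ctrl, all below 0, and Itln1 in Ctrl_Swim vs Ctrl, at -2.61.

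The counts of α-defensins can also be compared inside a library, which needs no scaling between libraries. Per 100 counts of Defa24, AY761184 had between 6.36 and 15.1 counts in the 6 mice without AOM/DSS. It had 0.132 in Model 1, 0 in Model 2, and 3.76, 1.58 and 3.33 in Model_Swim 1, 2 and 3. These 5 AOM/DSS mice lay below the 6 others in value, but not all beyond counting error. The exact 95% interval was 2.13 to 6.17 in Model_Swim 1 and 3.12 to 11.7 in Ctrl 1. Model 3 had 0 counts of AY761184, Defa29 and Mptx2 beside 4 of Defa24, which allows up to 151 per 100 (exact 95% interval), so that its ratio was not measurable at this depth. Defa29 likewise had between 6.11 and 11.2 counts per 100 of Defa24 without AOM/DSS and between 0.263 and 4.23 in the 5 AOM/DSS mice other than Model 3. Mptx2 had between 5.71 and 17.1 without AOM/DSS and between 0 and 4.46 in those 5 mice. For both genes the exact 95% intervals of the nearest mice overlapped. For Defa29 they were 2.48 to 6.76 in Model_Swim 1 and 5.05 to 7.33 in Ctrl 2. For Mptx2 they were 2.66 to 7.05 and 4.70 to 6.89 in the same mice. The separation was neither complete in the class of AY761184 nor particular to it. Gm7849 overlapped, at 4.10 in Ctrl_Swim 2 and 5.40 in Model_Swim 1. Gm14851 had at most 13.1 in those 5 AOM/DSS mice and at least 19.7 without AOM/DSS. Fabp6, an ileal bile acid binding protein and no α-defensin, had at most 54.7 and at least 56.2.

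Lyz1 moved the other way against Defa24. It had 260, 236 and 189 counts per 100 counts of Defa24 in Ctrl 1, 2 and 3, and 223, 239 and 129 in Ctrl_Swim 2, 3 and 4. It had 1165 and 971 in Model 1 and Model 2, and 733, 1025 and 933 in Model_Swim 1, 2 and 3. Model 3, at 5450 with an exact 95% counting interval of 2098 to 20182, rested on 4 counts of Defa24. Every AOM/DSS mouse lay above every untreated mouse, with or without Model 1 and Model 3, although in CPM Lyz1 overlapped between them. Relative to Defa24, Mmp7 was separated too, at 208 or more in AOM/DSS mice and 26.3 or less in the others, while Lyz2 overlapped. The share of all genes separated by such a ratio was not computed. These ratios were set up after the values were seen and carry no test.

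**Figure D3:**
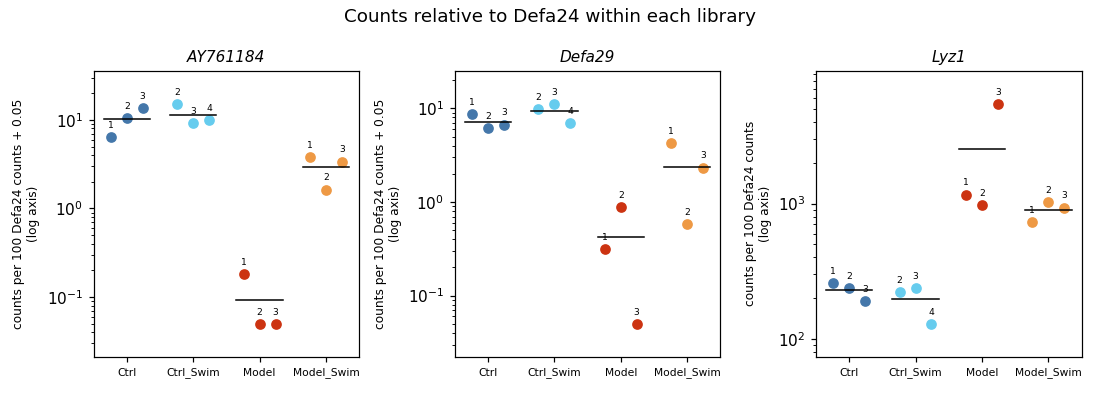
Counts of AY761184, Defa29 and Lyz1 per 100 counts of Defa24 in the same library (log axes, + 0.05 for AY761184 and Defa29), by group, with 1 point per mouse and a line at the mean. AY761184 and Defa29 were at 4.23 or less in 5 AOM/DSS mice and at 6.11 or more in the 6 untreated mice, Model 3 not being measurable with 4 Defa24 counts, whereas Lyz1 was at 733 or more in AOM/DSS mice and at 260 or less in the others.

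The same division was seen over the sequence classes. Summed over all 26 listed α-defensins, the class of AY761184 and Defa29 held between 13% and 19.3% of the α-defensin counts in the 6 mice without AOM/DSS. In Model 1 it held 0.597% (8 of 1340 counts, exact 95% interval 0.258% to 1.17%) and in Model 2 1.20% (3 of 250, interval 0.248% to 3.47%). In Model_Swim 1, 2 and 3 it held 10.6%, 5.03% and 7.36%. Model 3 had 10 α-defensin counts in all, 1 of them in this class, and its share was not measurable at this depth (interval 0.253% to 44.5%).

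The class of Defa24 held between 39.4% and 48.4% of the counts without AOM/DSS, and between 58.6% and 77.8% in the 5 AOM/DSS mice other than Model 3. The class of Defa21 and Defa22 held between 34.1% and 44.9% without AOM/DSS and between 21.3% and 30.8% in those 5 mice. For all 3 classes these 5 mice did not overlap the 6 untreated mice, and Model 3 could not be placed. The classes were formed after the values were seen, and these shares are a description.

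**Figure D4:**
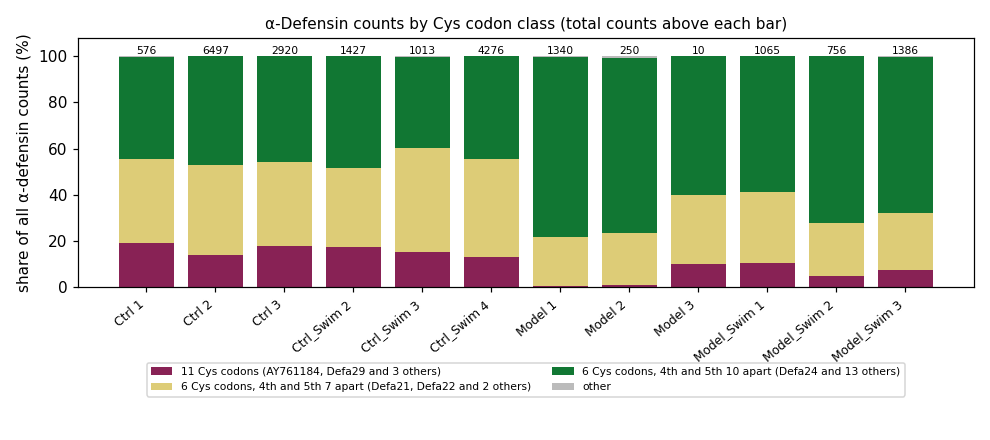
Share of all α-defensin counts, in percent, that fell on each class of cysteine codons, with 1 bar per mouse and the total of α-defensin counts above it. The class of AY761184 and Defa29 made up 0.597% and 1.20% in Model 1 and Model 2, and the class of Defa24 at least 58.6% in 5 AOM/DSS mice, while the bar of Model 3 rests on 10 counts and cannot be placed.

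Of 40 other α-defensin symbols listed, 13 were tested. By edgeR's test with Benjamini-Hochberg adjustment 5 of them fell in Model against Ctrl and 0 rose, with a median log2 fold change of -2.82. They were Gm14851 (log2 fold change -7.79 ± 1.00 SE, adjusted p = 0.000655), Gm7849 (-5.62 ± 1.08, adjusted p = 0.00371), Defa26 (-4.44 ± 1.45, adjusted p = 0.0373), Defa21 (-3.93 ± 1.10, adjusted p = 0.0202) and Defa22 (-3.33 ± 1.08, adjusted p = 0.0366). Gm14851 and Gm7849 share the cysteine pattern of AY761184 and Defa29. Gm14851, whose sequence is printed above, had 3.53 to 21.8 CPM in Ctrl mice and 1 count in each Model mouse. Defa30, the closest relative of Defa24, did not pass, at -2.23 ± 1.03 (adjusted p = 0.116). Defa17 did not either, at -1.48 ± 1.08 (adjusted p = 0.308). The calls of Defa22 and Defa26 were lost in 11 of 23 and 13 of 22 alternatives, among them the fits without Ctrl 2, Ctrl 3, Model 2, Model 3 or any Model_Swim mouse, and that of Defa21 in 3 of 23, without Ctrl 2 or Model 2 among them.

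The other granule proteins did not share one direction. Of 10 listed, 8 were tested, of which 3 rose and 1 fell in Model. Mmp7, matrilysin, which activates α-defensin precursors in mice, stood at 134, 24.9 and 3.44 CPM in Model 1, 2 and 3 against 2.10 to 7.90 CPM in Ctrl mice. It rose with a log2 fold change of 3.43 ± 0.98 (adjusted p = 0.022), although Model 3 lay within the Ctrl range. Lyz2 rose by 1.35 ± 0.12 (adjusted p = 0.000285), from between 143 and 172 CPM in Ctrl to between 392 and 422 CPM in Model. Lyz1 did not follow it, since Model 1 and Model 3 were at 475 and 12.5 CPM of Lyz1 and at 392 and 422 CPM of Lyz2. Habp2, a secreted protease, rose by 2.99 ± 0.97 (adjusted p = 0.0371), although Model 3, at 1.26 CPM, lay within the Ctrl range of 0.0552 to 1.47 CPM. Ang4, a microbicidal ribonuclease of Paneth and goblet cells, fell with a log2 fold change of -1.92 ± 0.56 (adjusted p = 0.023). Mptx1, the relative of Mptx2, did not pass, at -2.57 ± 0.98 (adjusted p = 0.0644). Without Model 1 the calls of Mmp7, Habp2 and Ang4 were lost, and without Ctrl 1 likewise.

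Among 16 genes of the Paneth lineage and its niche, all tested, 1 rose and 2 fell. Wnt3, a signal that Paneth cells give to neighbouring stem cells, rose by 2.57 ± 0.91 (adjusted p = 0.0494) from a low level of 0.109 to 0.275 CPM in Ctrl mice, and Model 3 lay within that range. Its call was lost in 13 of 20 alternatives, among them the fits without Ctrl 1, 2 or 3, Model 1 or Model 2. Spdef, a transcription factor of secretory cells, fell with a log2 fold change of -1.23 ± 0.20 (adjusted p = 0.00191), and Reg4, a secreted lectin, of -2.98 ± 0.45 (adjusted p = 0.00126). Sox9, a factor needed for Paneth cells, did not pass, at 0.35 ± 0.16 (adjusted p = 0.108). Cd24a (-0.76 ± 0.10, adjusted p = 0.000601) missed the fold cutoff.

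Among 22 other antimicrobial proteins of the colon, 19 were tested, of which 7 rose and 1 fell. Ltf, lactoferrin, rose by 7.35 ± 1.90 (adjusted p = 0.0141), although Model 3, at 0.976 CPM, lay within the Ctrl range of 0.773 to 1.31 CPM. S100a8 and S100a9, the subunits of calprotectin, rose by 5.93 ± 1.54 and 5.65 ± 1.37 (adjusted p = 0.0143 and 0.0107), and Nos2, inducible nitric oxide synthase, by 3.85 ± 0.56 (adjusted p = 0.00101). Slpi, a protease inhibitor, Lcn2, which binds bacterial siderophores, and Duox2, which makes hydrogen peroxide, rose by 3.31 ± 0.51, 2.88 ± 0.69 and 1.14 ± 0.17 (adjusted p = 0.00132, 0.00982 and 0.00131). Retnlb, a goblet cell protein that acts on bacteria, fell with a log2 fold change of -2.55 ± 0.50 (adjusted p = 0.00388). The summed level of 10 neutrophil genes was 11.2 to 22.6 CPM in Ctrl and 21.5 to 136 CPM in Model mice, and its part in the values of Ltf, S100a8 and S100a9 was not tested. Over these 4 lists 20 genes other than the members passed, and 13 did when either Ctrl 2 or Ctrl 3 was left out. Of the genes named here, Ltf lost its call without any 1 Ctrl mouse, S100a8 without Ctrl 1 or Ctrl 3, and Duox2 without Ctrl 2.

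Genes of small intestinal enterocytes were lower, as AY761184, Defa29 and Mptx2 were, in the Model mice. Of 18 such genes, 16 were tested, 10 fell and 0 rose in Model against Ctrl, with a median log2 fold change of -1.67. Fabp6, an ileal bile acid binding protein, stood at 12, 62.2 and 71.1 CPM in Ctrl 1, 2 and 3 and at 1.5, 2.23 and 1.89 CPM in Model 1, 2 and 3. It fell with a log2 fold change of -4.69 ± 0.78 (adjusted p = 0.00189), and Apoa1 and Sis, an apolipoprotein and the enzyme sucrase-isomaltase, fell with -5.04 ± 0.98 and -4.17 ± 0.95 (adjusted p = 0.00388 and 0.0078). The summed level of the list was 1107 to 1743 CPM in Ctrl, 1086 to 1360 CPM in Ctrl_Swim, 416 to 706 CPM in Model and 884 to 1096 CPM in Model_Swim mice, and at most 1 of its genes had 0 counts in any library. The summed level of 11 genes of colonocytes and distal colon position was also lowest in Model mice. It was 7671 to 8309 CPM in Ctrl, 6967 to 10629 CPM in Ctrl_Swim, 1477 to 5781 CPM in Model and 7286 to 7830 CPM in Model_Swim mice. Of these 11 genes 0 passed in Model against Ctrl, and their median log2 fold change was 0.37. The part of either kind of cell in the values of the members was not tested.

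To describe what swimming went with in AOM/DSS mice, Model_Swim was compared with Model. In CPM, AY761184, Defa29 and Mptx2 were higher in all 3 Model_Swim mice than in any Model mouse, for Defa29 by scaling alone between Model_Swim 2 and Model 1 (2 counts each), as were 8.32% of all genes, while 8.57% were lower in all 3. Their log2 fold changes were 4.89 ± 1.59, 3.29 ± 1.18 and 2.49 ± 1.12 (± SE). The Model values behind them rest on 1, 3 and 9 counts. Per 100 counts of Defa24, Defa29 was lower in Model_Swim 2 (0.528) than in Model 2 (0.84). Of the 6 members 0 passed the cutoffs by edgeR, where 0.071% of all genes passed (0.0646% higher and 0.00646% lower). By edgeR's test 3 of the 6 had an unadjusted p under 0.05, as did 2102 of the 15484 genes tested. By DESeq2, run without the filter on low counts, 1 member, AY761184, passed, as did 115 of the 18514 genes listed. AY761184 and Defa29 passed that filter only through the untreated mice. In an edgeR fit of Model_Swim and Model alone they were not tested, and 0 of the 4 members tested were called. Scaled to library size, AY761184 had 41 counts in Model_Swim against 1 in Model, a ratio of 40.3 with an exact 95% counting interval of 6.83 to 1629. Defa29 had 33 counts against 3, a ratio of 10.8 with an interval of 3.39 to 55.1.

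Defa24, Itln1 and Lyz1 overlapped between Model_Swim and Model, with log2 fold changes of 0.64 ± 1.09, 0.45 ± 0.48 and 0.27 ± 1.02 (± SE). The Model_Swim mice were closer to each other than the Model mice were. Lyz1 had an SD of 55.8 CPM in Model_Swim and 254 CPM in Model, and Defa24 had 4.94 and 21.8 CPM (n = 3). Without Model 1 the log2 fold change of Lyz1 was 2.54 and that of Defa24 2.86, and without Model 3 they were -0.28 and 0.07. With both left out, only Model 2 remained, with 0, 1 and 0 counts of AY761184, Defa29 and Mptx2. A term for libraries with Pnlip, pancreatic lipase, at 1 CPM or more was also added to the fit after seeing the data. All Model and no Model_Swim mice are of this kind, so that the term is estimated from the Ctrl_Swim mice alone. With it the log2 fold changes were 2.94 for AY761184, 2.18 for Defa29 and 1.06 for Mptx2, and those of Defa24, Lyz1 and Itln1 turned to -1.02, -0.74 and -0.76. Of the 56 other genes tested on the 4 lists 0 passed by edgeR, 7 had an unadjusted p under 0.05, a share no larger than that over all genes, and 2 passed by DESeq2. Fabp6 also stood higher in all 3 Model_Swim mice, at 12.8, 5.60 and 10.2 CPM, and did not pass (2.34 ± 0.78, adjusted p = 0.256). Of the 16 tested genes of small intestinal enterocytes, 12 were higher in every Model_Swim mouse than in any Model mouse, as were 8.32% of all genes. None was lower in that way and none passed, and their median log2 fold change was 1.01. Of the 11 tested genes of colonocytes and distal colon position, 2 were higher in that way and 0 lower, with a median log2 fold change of -0.20. The part of either kind of cell in the values of the members was not tested here either.

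To describe swimming without AOM/DSS, Ctrl_Swim was compared with Ctrl. Here Itln1 was the member that stood out, with a log2 fold change of -2.61 ± 0.51 (± SE), 1 of 6 members past the cutoffs, where 0.168% of all genes passed (0.142% lower and 0.0258% higher). It lay between 11.5 and 32.0 CPM in Ctrl_Swim and between 103 and 148 CPM in Ctrl mice. Its call was lost without any 1 of the 9 mice outside the Model group, although the log2 fold change stayed between -2.99 and -2.29. The other 5 members were lower on average, at -0.80 ± 0.81 for AY761184, -0.44 ± 0.75 for Defa29, -0.78 ± 1.06 for Defa24, -1.22 ± 1.05 for Lyz1 and -0.92 ± 0.84 for Mptx2 (± SE), and all 5 overlapped. Without Ctrl 2 they were 0.02, 0.41, 0.20, -0.09 and -0.74, so that 3 of them changed sign.

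Goblet cell genes were lower together with Itln1 in this comparison. Of 11 goblet cell genes tested, 4 fell in Ctrl_Swim and all 11 were lower in each Ctrl_Swim mouse than in any Ctrl mouse, with a median log2 fold change of -0.80, where 14.9% of all genes had no overlap in that direction. Ang4 fell from 2091 to 3053 CPM in Ctrl to 211 to 477 CPM in Ctrl_Swim mice, with a log2 fold change of -2.95 ± 0.58 (adjusted p = 0.0442). Clca1, a protein of the mucus, fell with -2.51 ± 0.50 (adjusted p = 0.0465) and Retnlb with -2.50 ± 0.50 (adjusted p = 0.0465). Muc2, the main mucin of the colon, did not pass, at -0.34 ± 0.32 (adjusted p = 0.608). Beside Ang4 and Retnlb, Sprr2a3, a bactericidal small proline-rich protein, was the third gene of the 4 lists to fall (-1.74 ± 0.22, adjusted p = 0.0175). The part of goblet cells in the value of Itln1 was not tested. The calls of Ang4 and Retnlb were each lost under 13 of 23 alternatives.

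**Figure D5:**
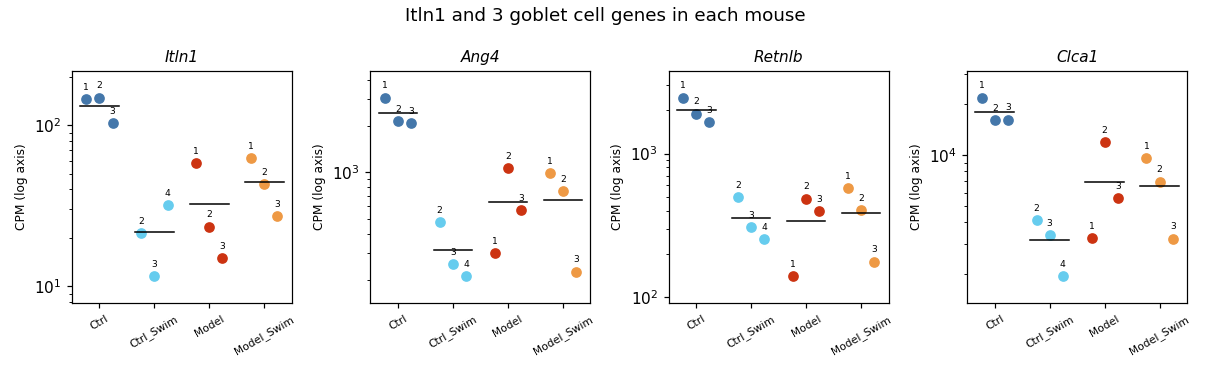
Level of Itln1 and of the goblet cell genes Ang4, Retnlb and Clca1 in CPM (log axes), by group, with 1 point per mouse labelled with its replicate number and a line at the mean. In all 4 panels the 3 Ctrl mice lie above every other mouse, and Itln1 lies between 11.5 and 32.0 CPM in Ctrl_Swim mice.

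Among the swimming mice, AOM/DSS was compared as Model_Swim against Ctrl_Swim. AY761184, Defa29 and Mptx2 were lower in every Model_Swim mouse than in any Ctrl_Swim mouse, at log2 fold changes of -2.27 ± 0.90, -2.14 ± 0.83 and -1.51 ± 0.90 (± SE), as were 16.5% of all genes. Lyz1 was higher in every Model_Swim mouse, at 2.05 ± 1.07, as were 15.9% of all genes. Itln1 and Defa24 overlapped, at 1.03 ± 0.49 and -0.40 ± 1.07. Of the 6 members 0 passed the cutoffs by edgeR and by DESeq2, 2 had an unadjusted p under 0.05, as did 3475 of the 15484 genes tested, and 1% of all genes passed (0.924% higher and 0.0775% lower). Of the other genes on the 4 lists, Mmp7 (3.97 ± 1.01, adjusted p = 0.047), Nos2 (3.43 ± 0.55, adjusted p = 0.00938), Lcn2 (2.71 ± 0.66, adjusted p = 0.0412), Duox2 (1.73 ± 0.18, adjusted p = 0.00277) and Sprr2a3 (1.17 ± 0.21, adjusted p = 0.0159) rose and 0 fell. The calls of Mmp7 and Lcn2 here were lost without any 1 of the Ctrl, Ctrl_Swim or Model_Swim mice. AY761184, Defa29 and Mptx2 were lower with AOM/DSS in both Model vs Ctrl and Model_Swim vs Ctrl_Swim. These comparisons have no mouse in common, but share 1 fit and 1 estimate of the spread. The members were chosen with earlier results of these data known, so that this is a description. The share of all genes lower in both was not computed.

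Whether Model_Swim differed from Model by another amount than Ctrl_Swim did from Ctrl was tested as an interaction. Of all genes 0 passed by edgeR, 2947 had an unadjusted p under 0.05 and 220 passed by DESeq2, and of the 6 members 0 passed by edgeR. By edgeR 4 members had an unadjusted p under 0.05 and by DESeq2 2 passed, AY761184 and Itln1. Itln1 also passed by edgeR when either Model 1 or Model 3 was left out. The members were chosen with earlier results of these data known, so that these counts are a description and no support for an interaction. The Model values of AY761184 and Defa29 rest on 1 and 3 counts, and both genes passed the filter on low counts only through the untreated mice. The log2 differences were 5.69 ± 1.82 for AY761184, 3.73 ± 1.41 for Defa29, 3.42 ± 1.41 for Mptx2, 3.06 ± 0.70 for Itln1, 1.5 ± 1.46 for Lyz1 and 1.42 ± 1.52 for Defa24 (± SE). A difference between the effects is thus not shown by the edgeR fit.

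The genes whose pattern was most like that of each member were ranked by Pearson's r of log2 CPM over the 12 libraries. The ranking covered 13998 genes with a mean of at least 1 CPM, the members themselves left out. Gene models were left out as well, among them Gm14851 and Gm7849, which share the cysteine pattern of AY761184 and Defa29. Their r was not computed. These r describe points that share groups and libraries, and no p is given. Between members, r was 0.976 for AY761184 and Defa29, 0.956 for AY761184 and Mptx2, and 0.933 for Defa29 and Mptx2. Among the genes ranked, the nearest to AY761184 were Fabp6 (r = 0.976), Uqcc3 (0.974) and Anpep (0.952). For Defa29 the same 3 genes led at r = 0.967, 0.931 and 0.929. Uqcc3 only ranged from 14.5 to 21.8 CPM. Mptx2 was nearest among the genes ranked to Uqcc3 (r = 0.953), Lgals2 (0.95) and Defa21 (0.944). Defa24 was nearest to Defa30 (r = 0.984), Defa22 (0.951) and Defa17 (0.941). Lyz1 was nearest to Adcy8 (r = 0.875), Rbm20 (0.845) and Lgr5 (0.838), the receptor that marks crypt stem cells and ranged from 5.05 to 54.1 CPM. Itln1 was nearest to Ranbp17 (r = 0.924), Efcab11 (0.917) and Rad23b (0.909), which ranged over narrow levels.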

How the data were processed

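Total RNA of colorectal tissue was sequenced from TruSeq Stranded mRNA libraries on an Illumina HiSeq instrument. The labels name a mirVana kit for extraction and the paper's methods TRIzol. The authors deposited raw read counts per gene, without normalization, from HTSeq-count, and FPKM values from Cufflinks. Both rest on reads trimmed by Trimmomatic and placed on GRCm38.p6 by HISAT2. Tool versions and annotation are not given in the sources used here.

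edgeR 4.0.16 (R 4.3.3) was run on the counts after filterByExpr (minimum count 10) and TMM scaling, with 1 quasi-likelihood model over all 12 libraries and their 4 groups, tested on simulated data. CPM is TMM-scaled. Alternatives used DESeq2 1.42.0 and limma 3.58.1. Coding sequences were aligned with Biopython 1.88. Intervals of counts are exact, from SciPy 1.17.1. The members and gene lists were chosen with earlier results of these data known. Named genes are the members, genes of the 4 lists past the cutoffs in Model vs Ctrl or Model_Swim vs Model, at most 8 a list, the most abundant genes of a list, Lyz2, Mmp7, Ang4, and the 3 non-member genes most like each member with a mean of at least 1 CPM, gene models left out. Other genes given as comparison, among them Mptx1, Defa17, Sox9, Sprr2a3 and Defa21 in the sequence lines, were picked after their values were seen.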

Additional observations from a re-analysis of the deposited data

How the results depend on the processing

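Between Model and Ctrl, 4 members were called in every alternative except without Model 1, where 5 were, and the other genes of the lists called lay between 13 and 21 when 1 mouse was left out. Over the 4 comparisons and the interaction together, 637 of the recomputed member fold changes kept their direction and 15 did not. Some of these fits leave out a mouse that is in neither group compared. Between Model_Swim and Model, where 0 members and 0 other genes were called, DESeq2 called 1 and 2, limma on log2(FPKM + 0.1) 0 and 1, leaving out 1 mouse 0 and 0 to 1, and leaving out Model 1 and Model 3 together 0 and 1. Between Ctrl_Swim and Ctrl, with 1 and 3 called, a fit of only the groups compared called 1 and 6, the adjusted p alone 1 and 5, all 3 limma fits on FPKM 0 and 1, a term for libraries with Pnlip at 1 CPM or more 0 and 0, and fits without 1 mouse 0 to 1 and 0 to 4. Between Model_Swim and Ctrl_Swim, with 0 and 5 called, DESeq2 called 0 and 11, a fit of only the groups compared 1 (Lyz1) and 8, the adjusted p alone 0 and 10, limma on log2(FPKM + 1) without a filter 0 and 3, leaving out Model 1 and Model 3 together 0 and 10, the Pnlip term 0 and 2, and fits without 1 mouse 0 and 2 to 10. In the interaction, with 0 and 0 called, DESeq2 called 2 and 7, leaving out Model 1 and Model 3 together 1 (Itln1) and 3, and fits without 1 mouse 0 to 1 and 0 to 4. The log2 fold change of Dmbt1 between Model and Ctrl, 0.093 in the fit of all mice, was between -0.091 (without Model 3) and 0.345 (without Model 2) when 1 mouse was left out and -0.55 without Model 1 and Model 3. The Pnlip term and the joint removal of Model 1 and Model 3 were chosen after seeing the data. The joint removal leaves 1 Model mouse. The cause of these shifts was not tested.

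The labels do not say whether the replicate numbers pair the mice. Of 15 same-numbered pairs, 4 had deviations correlated over 0.1 (r from -0.26 to 0.56, the highest between Ctrl_Swim 3 and Model 3). Differently numbered pairs had r from -0.56 to 0.45, so that these values do not settle whether the numbers pair mice. With the replicate number as a block, Ctrl_Swim vs Ctrl had 0 members and 0 other genes called and Model_Swim vs Ctrl_Swim 1 other gene, and the remaining counts stayed within 1.5 times.

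With 3 mice a group and 0 to 3 counts of AY761184 and Defa29 in the Model mice, their fold changes are imprecise, and the α-defensin shares of Model 3 rest on 10 counts. How reads of near-identical α-defensins were divided between genes is not given in the sources used here.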
